A study of Mus musculus with 4 samples.

Results

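Deubiquitinating enzymes remove ubiquitin from proteins and were followed here as 66 genes among the 24689 genes of the deposited expression table. The genes were chosen by symbol: the Usp, Uchl and Otud families by name pattern, with Otub1, Otub2, Bap1, Cyld, Atxn3, Josd1, Josd2, Stambp, Stambpl1, Brcc3 and Yod1. RNA was sequenced in 4 libraries from the mouse line HT-22, immortalized cells of hippocampal origin. Of these, 2 came from cells in which Pja2 was induced, titled Pja2-pb, and 2 from control cells, which one label calls uninduced and another wild type. How Pja2 was induced, and whether both groups came from the same line or clone, is not given in the sources used here. All cells carried the same passage label, and no agent other than the induction of Pja2 is named.

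Ubiquitin is attached to proteins by a chain of enzymes that ends in a ligase such as Pja2, a RING-type E3 ligase known for acting on the regulatory subunits of protein kinase A. Deubiquitinating enzymes reverse this step: they spare proteins from the proteasome, trim chains at the proteasome itself, or edit signals on histones, receptors and repair proteins. Most are cysteine proteases of the USP, UCH, OTU and Josephin folds, and those of the JAMM fold are zinc metalloproteases. In neurons such enzymes are known for their part in synaptic protein turnover and in inherited disease, with the expanded repeat of ATXN3 in humans as an example.

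Values are normalized read counts, the deposited log2 values turned back to a linear scale, which rest on 30080376 and 35262653 reads in the induced libraries and 25787452 and 31010351 reads in the control libraries. Pja2 itself had 54830 and 54244 normalized reads in the induced libraries, against 6167 and 5881 in the controls, so it follows the labels. Of 19 neuronal markers listed, 10 had values here, and of those 10, 3 reached a mean of 1 CPM (a read count scaled to the library's total), namely Tubb3, Dlg4 and Camk2a. Their summed level, with the other neuronal markers measured, was 76.1 and 87.5 CPM in the induced libraries and 98.7 and 77.3 CPM in the controls. The 6 fibroblast markers summed to 10770 and 10670 CPM in the induced libraries and 12560 and 11100 CPM in the controls, and 1 of them, Col3a1, fell (log2 fold change -0.64, limma adjusted p = 0.0309). The part of these levels in the results was not tested. Because RNA was taken in bulk, fewer cells that express a gene and less RNA per cell cannot be told apart.

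The family was broadly expressed. Together its genes took 0.505% and 0.510% of the reads of the induced libraries, against 0.497% and 0.484% in the controls. Of the 66 genes, 64 passed the filter of a mean of 1 CPM and were tested, with means of 1.91 to 472 CPM. The median of the 64 was 51.0 CPM, against 30.6 CPM for all 13276 genes tested. Below the filter lay Otud6a, with 1 and 2 reads in the induced libraries and 0 and 1 in the controls, and Uchl4, with 14 and 26 in the induced libraries and 12 and 19 in the controls. Uchl4 is a close copy of Uchl3 and can share its reads, so its level is uncertain. Uchl1, a widely used neuronal marker of this family, was not analysed here.

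Compared per length of exon, Usp14 was the most abundant member, with a mean of 1845 normalized reads per kilobase over the 4 libraries. It was followed by Usp1, which acts on the repair proteins FANCD2 and PCNA, at 1341 normalized reads per kilobase. Next came Otub1, an inhibitor of the E2 enzyme Ube2n, at 1041, and the large X-linked enzyme Usp9x, at 946. The median member had 241 normalized reads per kilobase. At the low end lay Usp13 at 32.0, the imprinted gene Usp29 at 3.46 and Otud6a at 1.14. Usp14 alone held 10.4% and 10.6% of all reads of the family in the induced libraries, against 8.01% and 8.74% in the controls.

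**Figure D1:**
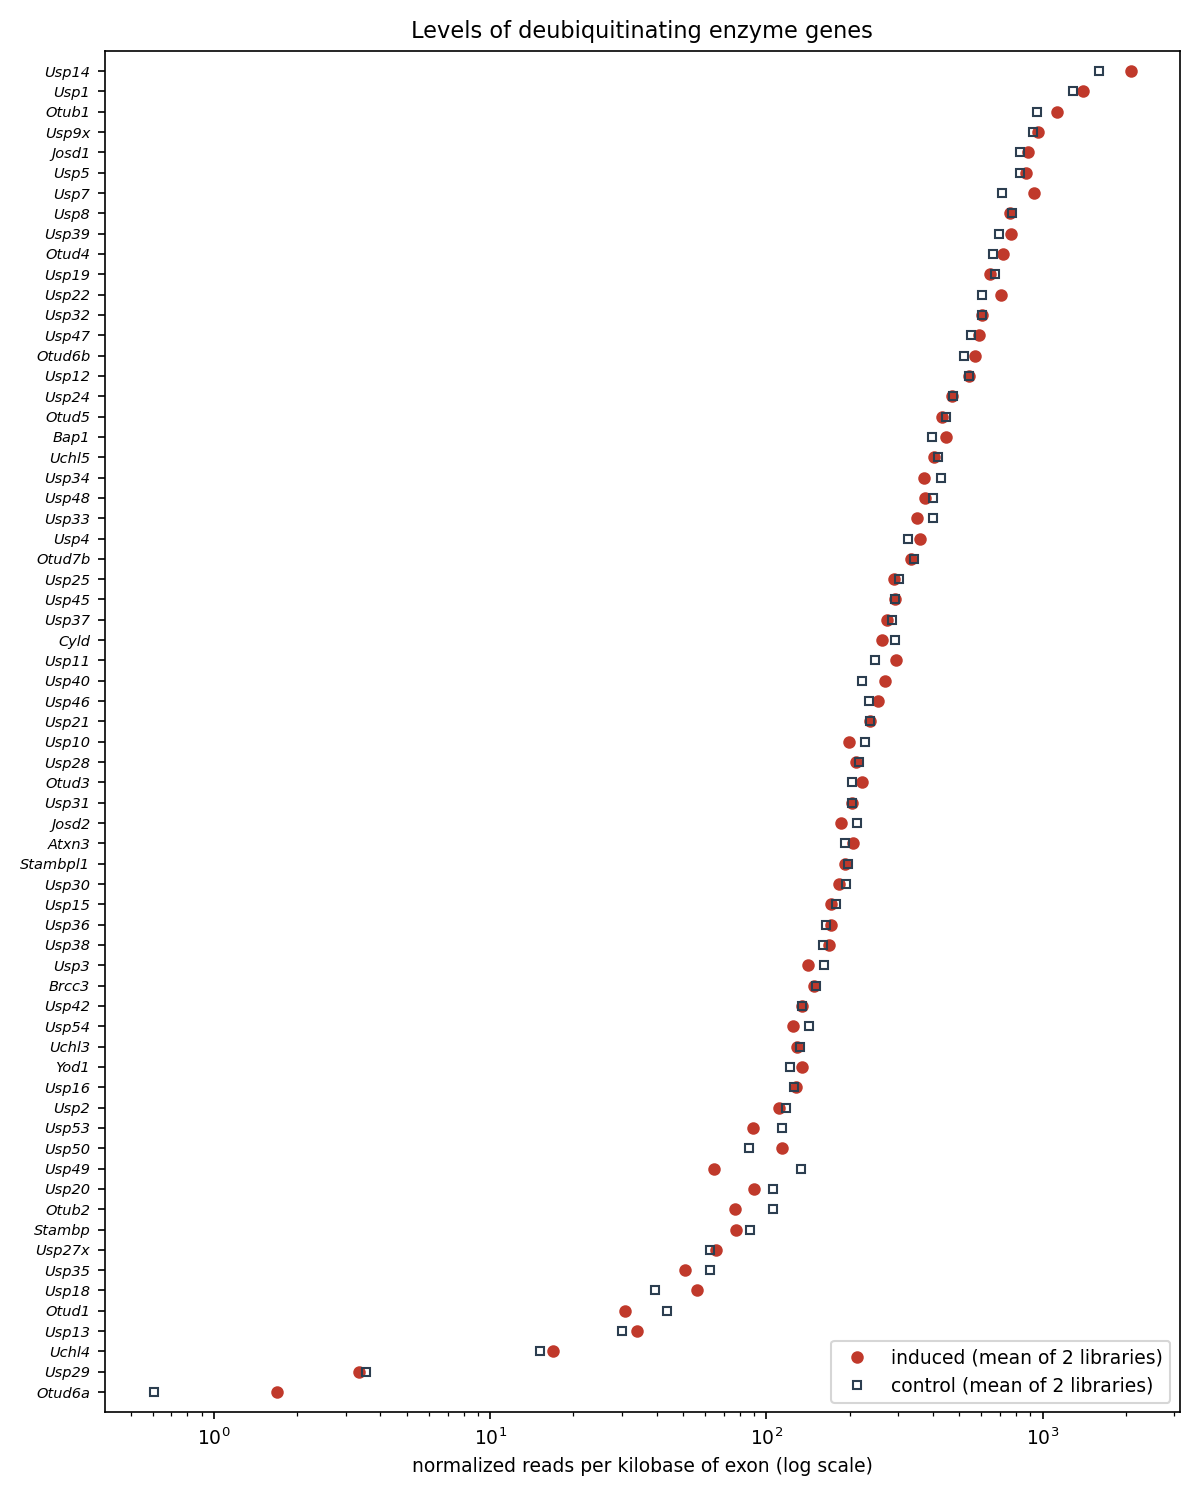
Mean normalized reads per kilobase of exon for the 66 deubiquitinating enzyme genes, on a log axis, with filled circles for the induced libraries and open squares for the controls (2 libraries each). The levels span from about 1 for Otud6a to 1845 for Usp14 over the 4 libraries, and for most genes the symbols lie close together.

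Between induced and control cells, 2 of the 64 tested genes rose and 0 fell, by limma on the log2 values with adjustment over all 13276 tested genes and a threshold of 0.05. Both that rose, Usp14 and Usp7, belong to the USP family, of which 45 were tested. Among all tested genes 2.08% were called higher and 1.34% lower, 3.42% in either direction, so the count of 2 in 64, or 3.13%, lies near the background. Of all tested genes, 19.1% had an unadjusted p below 0.05; of the family 11 of 64 did, 7 higher and 4 lower. The median log2 fold change was -0.00 for the family, with 30 above 0 and 34 below, and 0.00 for all tested genes. The median size of change, whatever its sign, was 0.11 in the family and 0.14 in all tested genes. The smallest log2 change called among all tested genes was 0.32 in size, and 8 of the 64 members had values of that size or larger. The SE of the members had a median of 0.09, and changes of about that size were not detectable with 2 libraries a group.

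**Figure D2:**
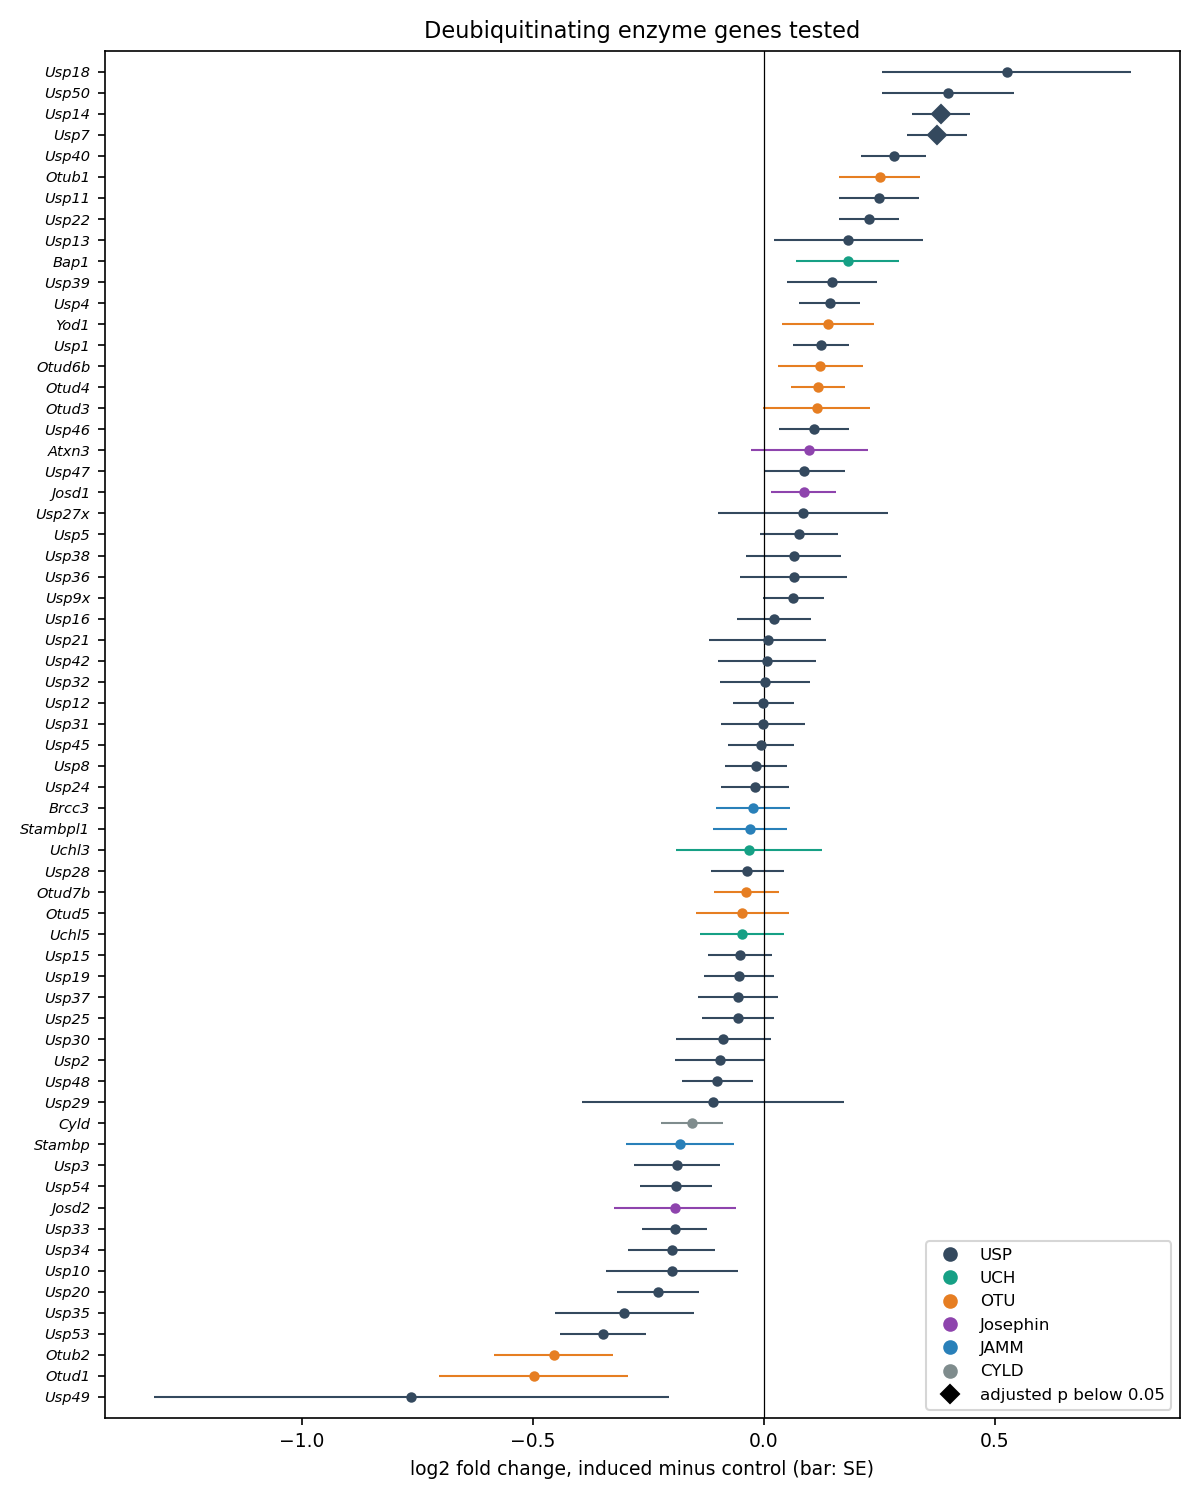
Log2 fold change, induced minus control, with its SE, for the 64 tested deubiquitinating enzyme genes, coloured by protease family, with diamonds for adjusted p below 0.05. Usp14 and Usp7 carry the diamonds, at 0.38 and 0.38, and 50 of the 64 genes lie within 0.2 of 0.

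Usp14, the enzyme that binds the proteasome and trims ubiquitin chains from arriving substrates, had 17146 and 17717 normalized reads in the induced libraries, against 12916 and 13818 in the controls. Both induced libraries lay above both controls. It averaged 17432 ± 404 in induced and 13367 ± 638 in control cells (SD, n = 2 each), a 1.30-fold rise (log2 fold change 0.38, SE 0.06, limma adjusted p = 0.0388). Leaving out any 1 library ended the call (adjusted p from 0.0531 to 0.167), with log2 fold changes of 0.33 to 0.43. The gene (ENSMUSG00000047879) lies on chromosome 18, and 2169 bases of its exons overlap those of Thoc1 on the opposite strand. The library kit does not mark strand, so reads there cannot be told apart. Exons of 21 of the 64 tested members share bases with another gene. Thoc1 had 1942 and 1732 normalized reads in the induced libraries and 1504 and 1617 in the controls (log2 fold change 0.23, adjusted p = 0.245).

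The other deubiquitinating enzymes of the proteasome did not pass the test. Uchl5, which docks on the subunit Adrm1, had 1246 and 1123 normalized reads in the induced libraries and 1190 and 1256 in the controls, which overlap (log2 fold change -0.05, 95% interval -0.27 to 0.18, adjusted p = 0.821). Psmd14, the metalloprotease subunit of the proteasome lid, had 2353 and 2412 in the induced libraries and 2056 and 2582 in the controls (log2 fold change 0.05, adjusted p = 0.859). Adrm1 had a log2 fold change of 0.28 (adjusted p = 0.245). Whether Usp14 moved apart from Uchl5 and Psmd14 was not tested.

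Usp7 (ENSMUSG00000022710, chromosome 16), known for removing ubiquitin from the ligase Mdm2 and from p53, had 7037 and 7369 normalized reads in the induced libraries, against 5700 and 5405 in the controls. The groups did not overlap. The means were 7203 ± 235 in induced and 5552 ± 209 in control cells (SD, n = 2 each), a 1.30-fold rise (log2 fold change 0.38, SE 0.06, adjusted p = 0.0415). Without any 1 library the adjusted p was 0.0687 to 0.180, with log2 fold changes of 0.34 to 0.41, and under quantile normalization the adjusted p was 0.0514. Neither Usp7 nor Usp14 was called without the filter (adjusted p = 0.0879 and 0.0805) or without a trend in the variance prior (0.152 and 0.151).

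Genes across much of chromosome 16 were shifted in the same direction as Usp7. The median log2 fold change of the 403 tested genes of chromosome 16 was 0.31, and 339 of them lay above 0. The medians of the 19 other chromosomes among 1 to 19 and X ran from -0.09 to 0.05. Relative to the mean of the 4 libraries, the chromosome 16 genes had a median of 0.14 and 0.16 in the induced libraries and -0.16 and -0.15 in the controls, on the log2 scale, so both libraries of each group took part. Of these genes 21.1% were called higher and 1.49% lower. The 20 nearest tested neighbours of Usp7, 10 on each side, had a median log2 fold change of 0.29, and 17 of them lay above 0. Usp7 exceeded the median of its chromosome by 0.06, about the size of its SE of 0.06, and that of its neighbours by 0.08. Usp14 stood otherwise: its 20 neighbours on chromosome 18 had a median of -0.01, and the median of the chromosome was -0.00.

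Both other members on chromosome 16 lie towards its far end and had values near 0. Usp25 had 1502 and 1522 normalized reads in the induced libraries, against 1626 and 1518 in the controls (log2 fold change -0.06, adjusted p = 0.746). Usp16, a histone deubiquitinating enzyme, had 1229 and 1182 in the induced libraries and 1213 and 1160 in the controls (log2 fold change 0.02, adjusted p = 0.904). The groups overlapped for both genes. Exons of Usp16 share 192 bases with those of Cct8 on the opposite strand. With a boundary drawn at Usp25 after the values were seen, the 330 tested genes up to and including it had a median of 0.37, and the 73 beyond it a median of 0.06. What the shift of this chromosome stands for was not tested.

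**Figure D3:**
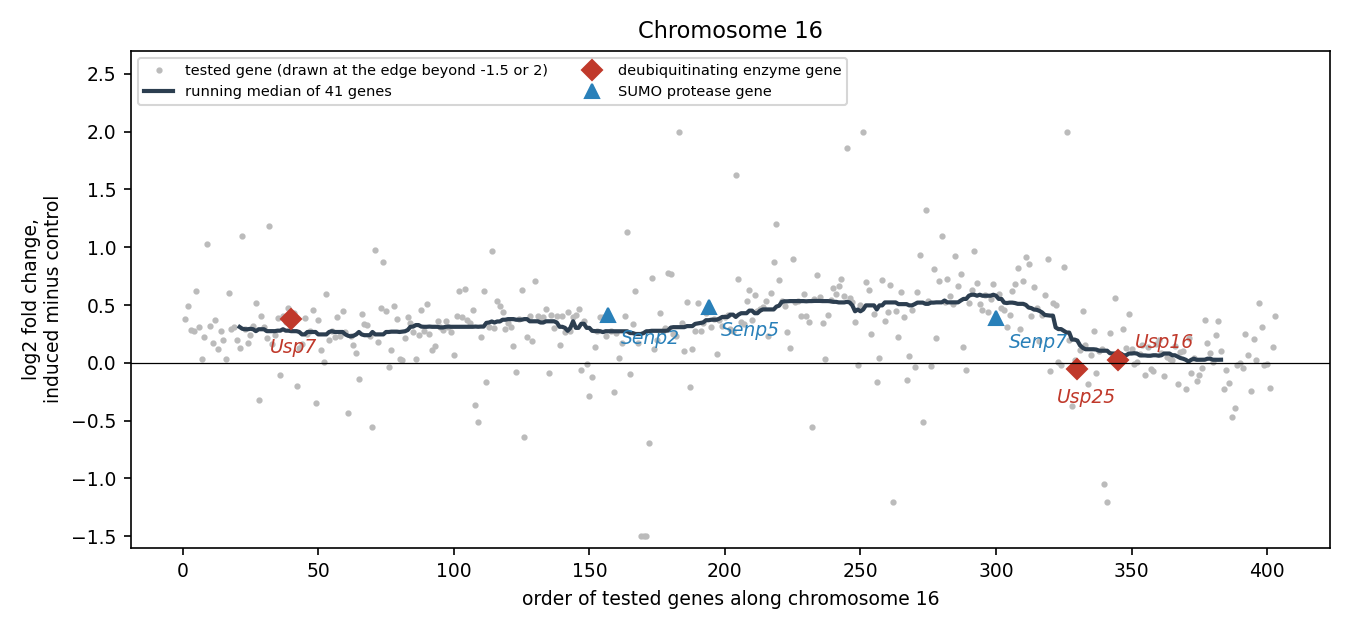
Log2 fold change, induced minus control, of the 403 tested genes of chromosome 16 in their order along it (grey, with extreme values drawn at the edge), with the running median of 41 genes (line), the 3 deubiquitinating enzyme genes (diamonds) and 3 SUMO protease genes (triangles). The line, which is not drawn at either end of the chromosome, stays above 0 wherever it is drawn. It falls through 0.19 at Usp25 to 0.08 at Usp16, while Usp7 sits in the raised stretch.

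The next members by unadjusted p did not pass the threshold. Their groups did not overlap, but choosing genes by low p favours this, so it adds no support. Both induced libraries lay above both controls for 16 of the 64 tested members, against 26.2% of all tested genes, and below both for 13, against 25.1%, in all 29 of 64 against 51.3%. Usp40 had 3078 and 3320 normalized reads in the induced libraries and 2616 and 2645 in the controls (log2 fold change 0.28, adjusted p = 0.110). Usp22, the enzyme of the SAGA coactivator that acts on histone H2B, had 3429 and 3505 in the induced libraries and 3013 and 2907 in the controls (log2 fold change 0.23, adjusted p = 0.142). Otub1 and the DNA repair enzyme Usp11 had log2 folds of 0.25 each (adjusted p values of 0.210 and 0.207). Usp50, a low gene beside Usp8 on chromosome 2, had 336 and 371 in the induced libraries and 248 and 289 in the controls (log2 fold change 0.40, adjusted p = 0.218).

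On the lower side, Usp53, a protein of cell junctions, had 1137 and 1109 normalized reads in the induced libraries, against 1522 and 1343 in the controls (log2 fold change -0.35, SE 0.09, adjusted p = 0.126). Otub2, the closest relative of Otub1, had 274 and 293 in the induced libraries and 410 and 369 in the controls (log2 fold change -0.45, adjusted p = 0.145). Its sign is opposite to that of Otub1. Usp33 and Usp20, a related pair that act on adrenergic receptors, had log2 folds of -0.19 and -0.23 (adjusted p values of 0.225 and 0.248), and Usp54, the relative of Usp53, of -0.19 (adjusted p = 0.267). The 20 neighbours of Usp54 had a median of -0.20, close to its own value, whereas those of Usp53 had a median of -0.02.

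**Figure D4:**
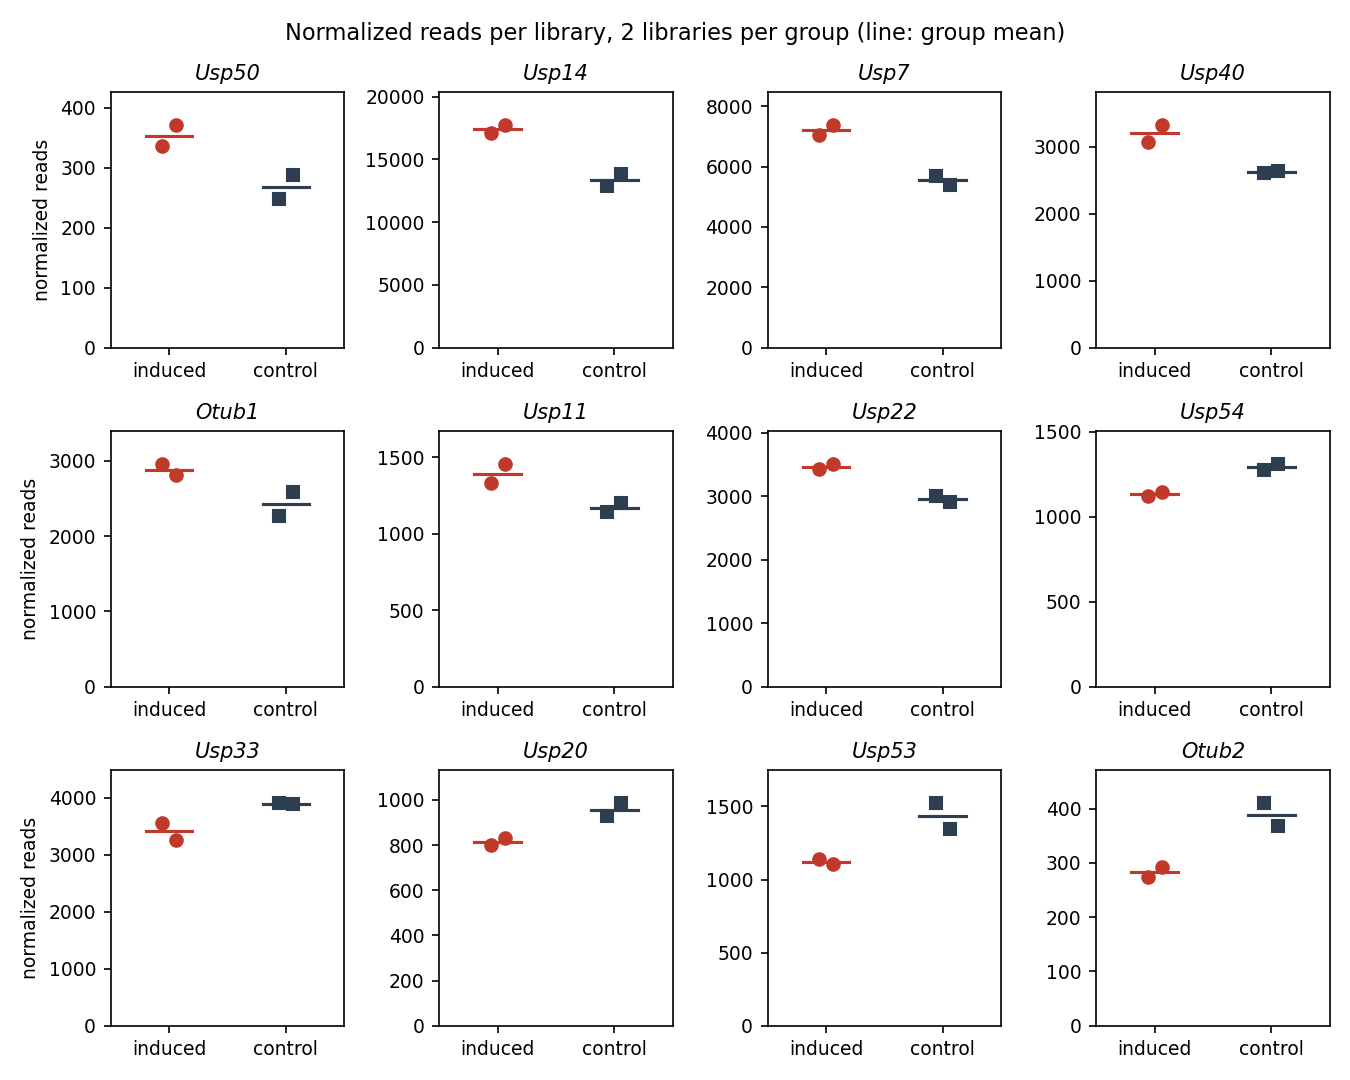
Normalized reads in each library, with the group mean as a line, for the 2 called members and the next 10 by unadjusted p, ordered by log2 fold change. Induced libraries are on the left of each panel and controls on the right. In all 12 panels the groups do not overlap, which the choice by p favours.

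Promoters are shown for Usp7 and Usp40, the members with the lowest p that had an entry in the RefSeq table (GRCm38.p6), as the 250 bases before the start of the gene. Both are on the minus strand and are written 5′ to 3′ along the gene. Capitals mark motif matches on either strand.

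Usp7, chr16:8738343-8738592: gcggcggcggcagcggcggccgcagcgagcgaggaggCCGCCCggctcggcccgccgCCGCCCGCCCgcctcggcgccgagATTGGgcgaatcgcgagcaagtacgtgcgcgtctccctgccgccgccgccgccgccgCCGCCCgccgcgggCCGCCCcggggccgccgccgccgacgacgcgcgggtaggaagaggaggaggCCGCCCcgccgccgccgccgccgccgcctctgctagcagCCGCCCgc

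Usp40, chr1:88008552-88008801: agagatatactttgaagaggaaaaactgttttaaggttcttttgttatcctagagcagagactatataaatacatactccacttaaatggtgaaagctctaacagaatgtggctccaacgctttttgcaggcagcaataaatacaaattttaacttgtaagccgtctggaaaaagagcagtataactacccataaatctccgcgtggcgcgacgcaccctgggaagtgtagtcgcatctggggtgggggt

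The motifs searched were the cAMP response element TGACGTCA, its core TGACG (contained in it), the GC box GGGCGG, the CCAAT box CCAAT, the NRF1 motif and the ETS motif CCGGAAG, each on both strands and with overlapping matches counted. The Usp7 window had 7 GC boxes, some overlapping one another, and 1 CCAAT box, and was 85.2% G or C, the highest of the 60 windows found for 54 of the 66 genes. The Usp40 window held 0 matches and was 42.0% G or C. The GC box was in 39 of the 60 member windows (65.0%), against 32.7% of all 32851 promoters, and the core TGACG in 20 (33.3%), against 17.8%. The full cAMP response element was in 0 of 60, against 1.55% of all promoters, and the NRF1 motif in 0 of 60, against 0.782%. The CCAAT box was in 20 (33.3%), against 33.85%, and the ETS motif in 8 (13.3%), against 6.91%. The median G and C content of the windows was 62.8% for members and 52.4% for all promoters, and its part in these shares was not tested. All promoters were taken whatever the level of their genes in these cells, while nearly all members were expressed, and the part of this was not tested either.

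Grouped by role, few changes stood out. For comparison with the role groups, 2.08% of all tested genes were called higher and 1.34% lower. Among 7 tested enzymes of histones H2A and H2B, 0 were called, with a median log2 fold change of 0.02. Bap1, the catalytic subunit of a complex that acts on H2A, had 2070 and 2115 normalized reads in the induced libraries and 1661 and 2049 in the controls, a gap that rests on 1 control library (log2 fold change 0.18, adjusted p = 0.439). Among the 5 enzymes of p53 and Mdm2, Usp7 was the 1 called higher (20%, against 2.08% of all tested genes). Usp7 lies in the raised stretch of chromosome 16. The others, Usp2, Usp10, Usp42 and Otud5, had log2 fold changes of -0.10, -0.20, 0.01 and -0.05. Of 6 genes of DNA damage 0 were called. Usp1 had 5310 and 5135 in the induced libraries and 4777 and 4807 in the controls (log2 fold change 0.12, 95% interval -0.02 to 0.27, adjusted p = 0.330). Brcc3, the metalloprotease of the BRCA1-A complex, had a log2 fold change of -0.02 (adjusted p = 0.901).

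Of 7 genes of NF-kB and innate immunity 0 were called. Cyld, which restrains NF-kB by removing linear and lysine-linked chains, had 3201 and 3417 normalized reads in the induced libraries and 3652 and 3714 in the controls (log2 fold change -0.16, adjusted p = 0.289). Usp18, the interferon-inducible protease that removes the ubiquitin-like protein Isg15, had 142 and 170 in the induced libraries and 136 and 85.3 in the controls (log2 fold change 0.53, SE 0.27, adjusted p = 0.356). Its log2 fold change ran from 0.19 to 0.86 when 1 library was left out. Isg15 itself had 557 and 609 in the induced libraries and 705 and 596 in the controls (log2 fold change -0.15, adjusted p = 0.550).

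Of the 6 enzymes of endosomes and receptors 5 lay below 0 and 0 were called, with a median of -0.10. Usp8, which acts on cargo sorted at endosomes, had 3112 and 3292 normalized reads in the induced libraries and 3292 and 3188 in the controls (log2 fold change -0.02, 95% interval -0.18 to 0.15, adjusted p = 0.912). Usp15 and Usp9x, known from TGF-beta signalling, had log2 folds of -0.05 and 0.06 (adjusted p values of 0.739 and 0.649). Usp30, the enzyme of the outer mitochondrial membrane, had -0.09 (adjusted p = 0.693). Atxn3, the Josephin enzyme of protein quality control, had 1204 and 1020 in the induced libraries and 1124 and 952 in the controls (log2 fold change 0.10, adjusted p = 0.719). Usp24, Usp34, Usp47 and Otud4, among the 8 members with most reads, had log2 folds of -0.02, -0.20, 0.09 and 0.12 (adjusted p values of 0.911, 0.321, 0.632 and 0.348). For Usp34 the exons overlap those of Ahsa2 by 2137 bases, and its 20 neighbours had a median of -0.25.

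By protease fold, the 9 tested OTU genes had a median log2 fold of 0.11, the 3 UCH genes -0.03, the 3 Josephin genes 0.09 and the 3 JAMM genes -0.03, with 0 called in each. Replicates of the family were close: the median gap between the 2 libraries of a group was 0.07 in induced and 0.10 in control cells on the log2 scale. Among the 64 tested members the gap exceeded 0.5 for Usp18 in control cells (0.66), for Usp29 in induced cells (0.55) and for Usp49 in control cells. Usp49, a histone H2B enzyme singled out after its values were seen, had the widest gap. It had 519 and 589 normalized reads in the induced libraries and 1792 and 492 in the controls, so that control replicate 1 alone stood apart, a gap of 1.86 on the log2 scale. Counting Usp49 itself, 58 of the 13276 tested genes had a gap between the controls of that size or larger. The log2 fold change of Usp49 was -0.76 (adjusted p = 0.510), 0.17 without control replicate 1 and -1.70 without control replicate 2. The exons of Usp49 overlap those of Gm20517 by 4392 bases and of Tomm6 by 93. Neither showed such a gap: Gm20517 had 35.2 and 28.4 normalized reads in the controls and Tomm6 421 and 569.

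Among related genes outside the family, 19 were tested as deubiquitinating enzymes or genes with related protease domains, not all of them active on ubiquitin. Of these 2 fell and 0 rose, against 1.34% of all tested genes called lower and 2.08% higher. Both are members of the Usp17l cluster on chromosome 7, cytokine-inducible enzymes in mouse. Usp17la had 196 and 169 normalized reads in the induced libraries, against 423 and 396 in the controls (log2 fold change -1.17, SE 0.14, adjusted p = 0.0205). Usp17le had 57.6 and 62.1 in the induced libraries and 343 and 198 in the controls (log2 fold change -2.11, SE 0.29, adjusted p = 0.0260). Copies of this cluster can share reads, so how the difference divides among them is uncertain. The others with most reads, the splicing factor gene Prpf8 and the translation factor gene Eif3h, had log2 folds of 0.16 and -0.12 (adjusted p values of 0.250 and 0.339).

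A further list of 22 tested genes covered the SUMO, NEDD8 and ISG15 systems, with the proteases Ufsp1, Ufsp2 and Atg4a to Atg4d. This SUMO list also holds the member Usp18, and 2 of its genes rose and 0 fell. The share called higher was 9.09%, against 2.08% of all tested genes. The SUMO proteases Senp5 and Senp2 had log2 folds of 0.48 and 0.41 (adjusted p values of 0.0312 and 0.0353). Both lie on chromosome 16, as does Senp7 at 0.39 (adjusted p = 0.101), while Senp1, Senp3 and Senp6, on other chromosomes, had 0.06, 0.13 and 0.08. Of the tested genes of chromosome 16, 21.1% were called higher. The running median of 41 genes along it was 0.27 at Senp2, 0.37 at Senp5 and 0.58 at Senp7. Whether these genes moved apart from that stretch was not tested. Senp2 had 2676 and 2705 normalized reads in the induced libraries and 2036 and 2002 in the controls. For Senp5 the induced libraries had 2699 and 2916 and the controls 2022 and 1986. The gene of this list with most reads, Sumo2, had 0.05 (adjusted p = 0.897).

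Of 33 tested partners of deubiquitinating enzymes 0 were called, with a median of 0.05. Vcp, an unfolding ATPase that works with several of them, had 0.18 (adjusted p = 0.224) and G3bp1, a stress granule protein that binds Usp10, -0.09 (adjusted p = 0.515). Of 46 tested genes of ubiquitin, E1 and E2 enzymes 0 were called, with a median of 0.03. The E2 gene Ube2g2 came nearest, with 718 and 952 normalized reads in the induced libraries and 468 and 369 in the controls (log2 fold change 0.99, adjusted p = 0.0524; named after its values were seen). Those of this list with most reads, the polyubiquitin gene Ubb and the E1 gene Uba1, had 0.24 and 0.15 (adjusted p = 0.138 and 0.286). When 1 library was left out, 0 to 2 genes of the list with Usp17la and Usp17le were called lower, 0 without control replicate 1 and 1 without control replicate 2 or induced replicate 2. In each such fit 0 genes of the SUMO list were called higher. Without the filter, and likewise without a trend in the variance prior, 1 gene of the list with Usp17la and Usp17le was called lower and 0 of the SUMO list higher.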

How the data were processed

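RNA was extracted with Trizol and made into libraries with a TruSeq RNA kit, per the labels' protocols. HISAT, Cufflinks and the genome build mm9 are named in the submitters' processing notes. For the counting tool, annotation and scaling, nothing is stated there. The authors deposited log2 values of a normalized read count plus 1: turned back to the linear scale, each library's values were multiples of 1 step, 100% of them whole within 0.01. Whole reads were recovered from these steps. The filter kept 13276 of 24689 genes, those averaging 1 CPM or more, which were fitted with limma 3.58.1 in R 4.3.3, with a trend and no covariate; p-values are two-sided and adjusted by Benjamini-Hochberg over all of them. The pseudocount of 1 understates changes of low genes, and folds are ratios of mean normalized reads.

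Members and lists were chosen with earlier results of these data known. Named genes were those past the threshold, the next 10 by unadjusted p, the 8 with most reads, those below the filter, a list of known enzymes and, in other lists, up to 4 called genes and the 2 others with most reads; 1 gene that this rule names is not reported here. Exon lengths, overlaps and gene order came from GENCODE M21 (GRCm38), matched by Ensembl identifier for all but 98 genes; its order may differ from that of mm9. Separate cultures are not stated for the replicates; the p-values thus cover only the spread between these libraries, which may be technical. The 2 libraries of a group were not copies of each other: chi-square was 12.9 per gene in induced and 16.9 in control cells. On simulated libraries with 200 of 13276 genes changed between induced and control cells, limma recovered 47% of 2-fold and 78% of 4-fold changes, with 4 of 129 calls false. The simulation added Poisson noise to each gene's residual SD, which already holds counting noise, so its spread is wider than in these data. Changes below 2-fold, such as those of Usp14 and Usp7, were not simulated.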

Additional observations from a re-analysis of the deposited data

How the results depend on the processing

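The counts depended on the fit. Both calls, Usp14 and Usp7, remained with a filter of 5 CPM, a pseudocount of 8, equal totals per library and voom on the recovered reads. The fit without the genes of chromosome 16 holds no value for Usp7, which lies there, so it cannot test that call. It also removes the 85 genes of that chromosome called higher and the 6 called lower. The count of members called higher was 0 without a filter, 0 without a trend in the variance prior, 0 with the replicate number as a block (replicate block; adjusted p = 0.0899 for Usp14 and 0.0977 for Usp7), 1 with quantile normalization and 1 without the genes of chromosome 16 (Usp14, adjusted p = 0.0472; this fit was added after the data were seen), and 0 to 0 when 1 library was left out. The count called lower was 0 to 1 when 1 library was left out, the 1 being Usp49 without control replicate 2, and 0 in the other fits. Over all tested genes, 276 were higher and 178 lower; the counts were 100 and 59 without a filter, 64 and 52 without a trend, 157 and 104 with the replicate block, and 170 higher and 154 lower without chromosome 16. With 1 library left out, 113 to 204 were higher and 78 to 136 lower. The count called higher was 113 without induced replicate 2 and 126 without induced replicate 1, and the count called lower was 78 without control replicate 1 and 111 without control replicate 2. The SUMO list had 0 calls higher with the replicate block, against 2. The median of the members was -0.0107 with equal totals, -0.0144 with quantile normalization and -0.0121 to 0.00453 with 1 library left out. With 1 library left out, the lone library of its group is assumed to vary like the others. Usp7 less the median of chromosome 16 was 0.06. The cause of these differences between fits was not tested. Deviations of same-numbered libraries from their group means had a correlation of -0.0950 over 13276 genes. A value over all genes cannot show whether the numbers pair the samples for some genes, so pairing was not settled. Uchl4 and Otud6a lay below the filter and were not tested.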
